A study of Homo sapiens with 18 samples.

Results

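Simple epithelial keratins are the intermediate filament proteins of single-layered and glandular epithelia, and the transcripts described here are those of KRT7, KRT8, KRT18, KRT19, KRT80 and KRT10, 6 of the 60656 rows of a gene count table. The rows were taken by versioned Ensembl identifier and symbol, protein-coding genes only, and all 6 held counts in every library. KRT18 was selected on these same data because it rose in CAMA-1 cells and fell in ZR-75-1 cells with both drugs, so its changes from DMSO, and how they differ between the lines, are given below as a description, without a test, and it is not counted among the members that passed one there. It was tested between the drugs, contrasts that share libraries with those it was selected on. Its levels in DMSO, which entered that selection, are compared between the lines as a description too. The question put to the other 5 was whether they followed it, KRT8 and KRT19 in particular, across 6 groups.

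CAMA-1 and ZR-75-1 are established human breast cancer cell lines that express the oestrogen receptor, used here as wild-type parental cultures. Each was grown for 5 days with abemaciclib at 500 nM, with palbociclib at 500 nM, or with the vehicle DMSO, and 3 libraries were made per group, 18 in all, which the study's methods state to be independent biological replicates. Both drugs inhibit the cyclin-dependent kinases CDK4 and CDK6, which release cells from G1 by phosphorylating the retinoblastoma protein. RNA was read by 3′ mRNA sequencing, which yields one tag near the polyadenylated end of a transcript, so that counts of different genes were compared without division by length. The results hold for these 2 lines, and in bulk samples a smaller number of cells of one type and less RNA per cell cannot be told apart.

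Keratins assemble only as pairs of a type I and a type II chain. KRT8 (type II) and KRT18 (type I) form the founding pair of simple epithelia and are the keratins by which luminal breast cells are recognised. KRT19, a type I keratin with almost no tail domain, and KRT7, a type II keratin of glandular ducts, are expressed beside them. KRT80 is a type II keratin, and KRT10 is the type I chain of the suprabasal epidermis, a stratified epithelium, and so not a simple epithelial keratin by its usual site. A chain that lacks a partner is degraded, so transcript levels of single chains need not give protein levels.

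In GENCODE 44 (GRCh38) the type II genes KRT7 (ENSG00000135480.16, chromosome 12, 52232520 to 52252186, plus strand), KRT8 (ENSG00000170421.12, 52897187 to 52949954, minus strand) and KRT80 (ENSG00000167767.14, 52168996 to 52192014, minus strand) lie in one keratin cluster. KRT18 (ENSG00000111057.11, 52948871 to 52952906, plus strand) is the type I gene that lies among them, next to KRT8, with which it shares 1084 bases on opposite strands at the 5′ ends. KRT19 (ENSG00000171345.13, chromosome 17, 41523617 to 41528308, minus strand) and KRT10 (ENSG00000186395.8, 40818117 to 40822614, minus strand) lie in the type I cluster. The transcript KRT10-AS1 covers 3514 bases of KRT10 on the other strand and held 18 to 53 counts per library, and KRT86 overlaps KRT7 by 2887 bases on the same strand with 1 to 19 counts. Whether the authors counted by strand is not given in the sources used here, so reads in such overlaps cannot be assigned from the table.

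KRT18 has many processed pseudogenes, copies of its spliced mRNA elsewhere in the genome. The stretch below is shown because it lies near the polyadenylated end, the part that 3′ sequencing reads: it is 116 of the 118 coding bases before the stop codon in the last exon, exon 7, of KRT18 (chr12:52952722-52952837, plus strand) with the matching stretches of KRT18P8 (chr18:9678248-9678363, minus strand) and KRT18P11 (chrX:92460832-92460947, plus strand), read 5′ to 3′ from the GENCODE 44 transcripts on GRCh38, with capitals at the bases that differ from KRT18.
KRT18: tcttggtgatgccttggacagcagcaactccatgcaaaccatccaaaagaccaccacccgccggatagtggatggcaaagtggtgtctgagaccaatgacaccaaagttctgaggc
KRT18P8: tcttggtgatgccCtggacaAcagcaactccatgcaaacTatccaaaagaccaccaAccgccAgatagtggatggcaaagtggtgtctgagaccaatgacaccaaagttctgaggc
KRT18P11: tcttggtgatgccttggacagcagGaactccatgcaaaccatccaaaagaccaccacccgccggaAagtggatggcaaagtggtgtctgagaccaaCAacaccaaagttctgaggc
Over these 116 bases KRT18P8 differed from KRT18 at 5 positions (95.7% identity) with an identical run of 53 bases, and KRT18P11 at 4 positions (96.6% identity) with an identical run of 40 bases. The 67 KRT18 pseudogene rows of the table held 2666 counts against 45088 for KRT18, 4.71% to 6.69% of the sum of both in each library, and 56 to 199 counts per library were those of KRT18P8. The share did not separate the groups: it was 5.08% to 6.69% in CAMA-1 with DMSO, 4.99% to 6.28% with the drugs, 5.52% to 6.14% in ZR-75-1 with DMSO and 4.71% to 5.98% with the drugs. The 51 KRT8 pseudogene rows held 40 counts in all and the 5 KRT19 rows held 1.

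Libraries held 2308442 to 4146549 counts. Mitochondrially encoded transcripts took 14.8% to 16.6% of the counts in CAMA-1 with DMSO, 22.9% to 26.1% in CAMA-1 with a drug and 17.3% to 22.6% in ZR-75-1. The 6 keratins together took 0.306% to 0.317% of the counts in CAMA-1 with DMSO and 0.472% to 0.553% with a drug. In ZR-75-1 they took 0.325% to 0.343% with DMSO, 0.362% to 0.384% with abemaciclib and 0.295% to 0.312% with palbociclib. The luminal markers EPCAM, CDH1, GATA3, FOXA1 and ESR1 were read in every library, from 38.2 CPM (normalised counts, scaled to the library total) for ESR1 upwards. KRT5, the basal keratin, was at 0 in all 18 libraries, where a count of 0 allows up to 3 counts, 0.687 to 1.28 CPM, for counting error only. KRT14, TP63 and the leukocyte marker PTPRC had at most 3 counts in any library, VIM at most 10. The summed level of the 6 basal markers, most of it ACTA2, was 1.14 to 4.14 CPM in CAMA-1 with DMSO and 6.10 to 11.5 CPM with a drug. In ZR-75-1 it was 5.51 to 12.1 CPM with DMSO, 0.661 to 2.36 CPM with abemaciclib and 2.52 to 5.07 CPM with palbociclib, so that this sum, like KRT18, was higher with the drugs in CAMA-1 and lower in ZR-75-1, and its part in the results was not tested. CDH2, a cadherin of mesenchymal cells, was read at 15.4 to 34.5 CPM in ZR-75-1 and at no more than 1.24 CPM in CAMA-1. The luminal marker CDH1 was higher in ZR-75-1 too, at 729 to 1041 CPM against 62.7 to 84.7 CPM in CAMA-1. In ZR-75-1 the summed level of the 4 mesenchymal markers, most of it CDH2, was 37.2 to 38.8 CPM with DMSO. It was 20.8 to 24.6 with abemaciclib and 17.9 to 25.8 with palbociclib, lower with both drugs without overlap. Over all CAMA-1 libraries the sum was 1.42 to 4.36 CPM. Its part in the results was not tested either.

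In DMSO the order of the levels was the same at the top in both lines: KRT19 first, then KRT18, then KRT8. KRT19 was at 1529 CPM ± 30.4 (SD, n = 3) in CAMA-1 and 2092 ± 94.9 in ZR-75-1, KRT18 at 620 ± 23.3 and 845 ± 9.26, and KRT8 at 355 ± 51.8 and 435 ± 29.8, with no overlap between neighbours in the order. Below them the lines parted. KRT7 stood at 221 CPM ± 6.09 in CAMA-1 and at 9.40 ± 3.19 in ZR-75-1, KRT80 at 31.5 ± 5.64 and 7.60 ± 0.905, and KRT10 at 84.7 ± 6.06 and 51.3 ± 4.33.

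Each member other than KRT18 differed between the lines in DMSO by edgeR's quasi-likelihood test with Benjamini-Hochberg adjustment. Of 11987 genes tested, 61.3% did. KRT7 was lower in ZR-75-1 by the widest margin (log2 difference -4.53, SE 0.12, adjusted p = 4.2e-41), and KRT80 (-2.04, SE 0.18, adjusted p = 2.8e-15) and KRT10 (-0.72, SE 0.13, adjusted p = 1.3e-06) were lower too. KRT19 (0.45, SE 0.059, adjusted p = 9.0e-10) and KRT8 (0.30, SE 0.074, adjusted p = 0.00047) were higher. KRT18 was higher as well (0.45, SE 0.062), as a description, since its selection used these DMSO libraries and favours this direction. The KRT8 difference rested on one library: without CAMA-1 DMSO replicate 3 it was 0.14 (adjusted p = 0.10).

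**Figure D1:**
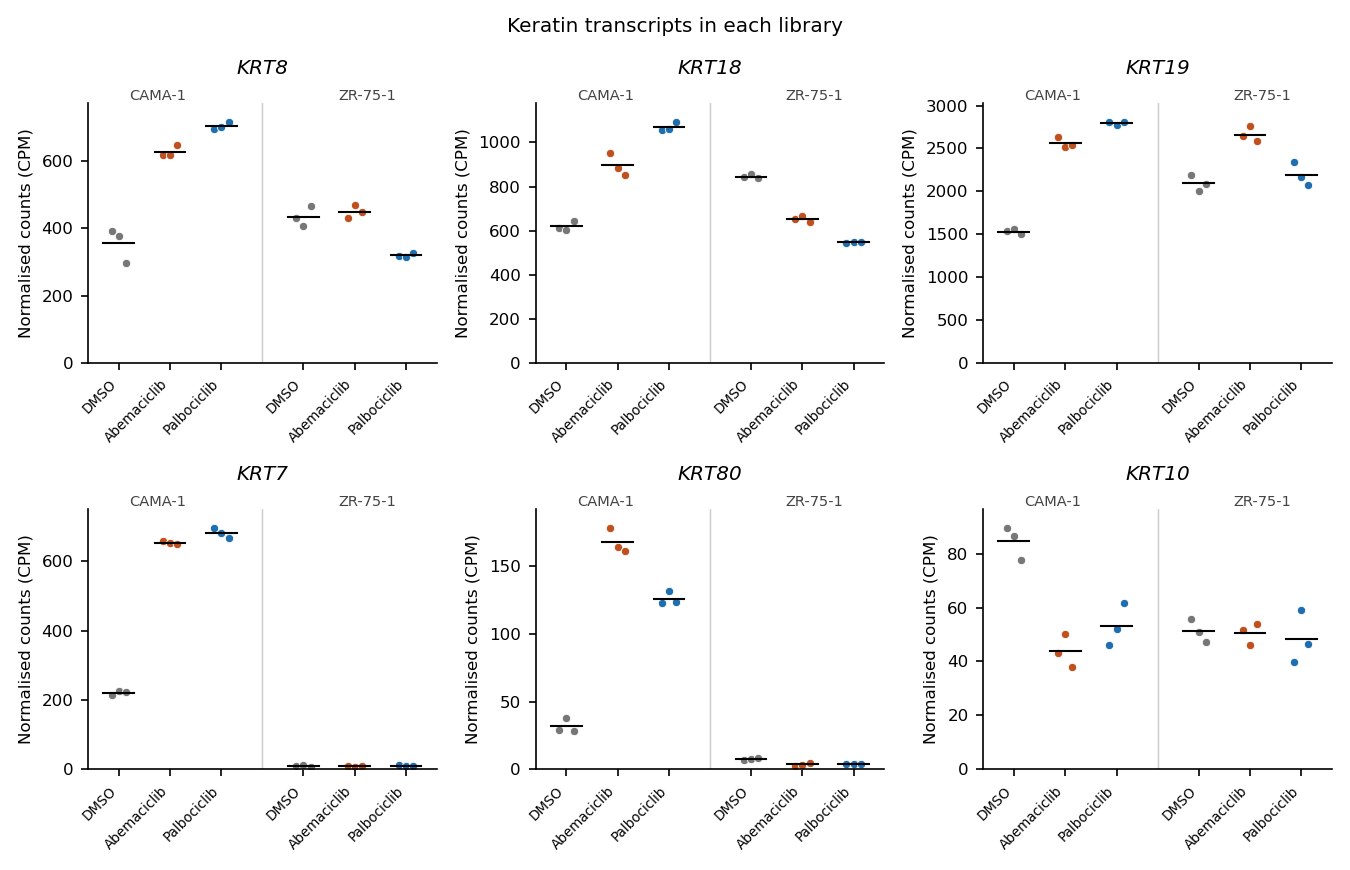
Normalised counts (CPM, linear axes from 0) of the 6 keratins in each library, by line and treatment; points are libraries in replicate order and bars are group means (n = 3). KRT18 stands higher with both drugs in CAMA-1 and lower in ZR-75-1, KRT8 is lower in ZR-75-1 with palbociclib but not with abemaciclib, and neither drug mean of KRT19 is below its DMSO mean in either line.

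In CAMA-1 the 3 keratins of the simple epithelial set stood higher with both drugs. KRT18, given as a description, was at 613, 600 and 646 CPM in the 3 DMSO libraries, at 954, 885 and 850 with abemaciclib and at 1056, 1062 and 1093 with palbociclib. Every drug library was above every DMSO library, at 1.42 times the DMSO level with abemaciclib (log2 0.50, SE 0.061) and 1.69 times with palbociclib (0.76, SE 0.060).

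KRT8, its partner, was at 393, 376 and 296 CPM with DMSO, at 618, 619 and 650 with abemaciclib and at 696, 702 and 717 with palbociclib. The groups did not overlap, and the third DMSO library stood apart from the other two. KRT8 rose 1.74-fold with abemaciclib (log2 0.80, SE 0.075, adjusted p = 6.4e-12) and 1.95-fold with palbociclib (0.96, SE 0.074, adjusted p = 2.9e-14). Over the fits that left out one library each, the smallest increases were 0.67 and 0.84 on the log2 scale.

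KRT19 was at 1535, 1555 and 1496 CPM with DMSO, at 2631, 2519 and 2540 with abemaciclib and at 2806, 2778 and 2809 with palbociclib. It was the most abundant keratin in each of the 18 libraries and rose 1.64-fold (log2 0.71, SE 0.053, adjusted p = 7.4e-15) and 1.79-fold (0.84, SE 0.053, adjusted p = 6.4e-17).

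The type II keratins KRT7 and KRT80 changed by more. KRT7 went from 215, 227 and 222 CPM with DMSO to 659, 652 and 650 with abemaciclib and 695, 681 and 667 with palbociclib, a rise of 2.89-fold (log2 1.53, SE 0.065, adjusted p = 1.2e-22) and 3.02-fold (1.59, SE 0.065, adjusted p = 3.5e-23). With abemaciclib its range overlapped that of KRT8, which it lay below in DMSO. KRT80 went from 28.6, 38.0 and 27.9 CPM to 178, 165 and 161 with abemaciclib and 123, 132 and 124 with palbociclib, a rise of 5.27-fold (log2 2.40, SE 0.11, adjusted p = 8.8e-22) and 3.95-fold (1.98, SE 0.11, adjusted p = 1.1e-18), and passed KRT10 in the order of levels.

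KRT10, the epidermal type I chain, fell in CAMA-1. It was at 89.4, 86.8 and 77.9 CPM with DMSO, at 43.3, 50.0 and 38.0 with abemaciclib and at 46.0, 51.9 and 61.7 with palbociclib, with no overlap between a drug and DMSO. The log2 change was -0.99 with abemaciclib (SE 0.12, adjusted p = 1.1e-08) and -0.71 with palbociclib (SE 0.12, adjusted p = 5.1e-06). Thus with each drug 5 of 5 members other than KRT18 passed the test in CAMA-1, 4 higher and 1 lower, where 40.3% of 11053 genes tested passed with abemaciclib and 37.1% with palbociclib. With mitochondrial genes left out of the totals and the test the count was 5 of 5 with each drug as well, KRT8 at 0.80 and 0.97 and KRT19 at 0.72 and 0.84 on the log2 scale.

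In ZR-75-1 the same keratins did not move as one. KRT18, again as a description, was at 843, 855 and 836 CPM with DMSO, at 650, 665 and 637 with abemaciclib and at 545, 548 and 546 with palbociclib. Every drug library was below every DMSO library, at 0.767 times the DMSO level (log2 -0.38, SE 0.065) and 0.645 times (-0.63, SE 0.065). With the pseudogene counts added to KRT18, these values were -0.39 and -0.64 in ZR-75-1 and 0.49 and 0.75 in CAMA-1.

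KRT8 went with KRT18 in ZR-75-1 under palbociclib and not detectably under abemaciclib. It was at 432, 406 and 466 CPM with DMSO, at 430, 471 and 449 with abemaciclib, which overlapped DMSO, and at 319, 314 and 327 with palbociclib, all below DMSO. The log2 change was 0.04 with abemaciclib (95% CI -0.10 to 0.18, adjusted p = 0.67), an interval that holds small changes in either direction, and -0.44 with palbociclib (SE 0.071, adjusted p = 1.3e-06).

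KRT19 did not fall with either drug in ZR-75-1. It was at 2191, 2002 and 2085 CPM with DMSO, at 2647, 2756 and 2582 with abemaciclib and at 2343, 2163 and 2075 with palbociclib. With abemaciclib every library was above DMSO and KRT19 rose 1.27-fold (log2 0.34, SE 0.065, adjusted p = 2.2e-05), the direction opposite to that of KRT18. With palbociclib the groups overlapped and the change was 0.06 (95% CI -0.06 to 0.19, adjusted p = 0.50).

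KRT7 and KRT80 were scarce in ZR-75-1. KRT7 had 19 to 42 counts per library, its groups overlapped, and neither log2 change passed the test (-0.26 with a 95% CI of -0.88 to 0.35, adjusted p = 0.55, and 0.05 with a CI of -0.53 to 0.64, adjusted p = 0.92). KRT80 had 21 to 25 counts with DMSO, 8 to 12 with abemaciclib and 12 to 14 with palbociclib, or 6.85, 7.34 and 8.61 CPM, 2.64, 3.12 and 4.72 CPM, and 3.91, 4.05 and 3.52 CPM. The drug libraries lay below DMSO, the fall passed with abemaciclib (log2 -1.14, SE 0.41, adjusted p = 0.025), and the palbociclib change of -0.98 (SE 0.39, adjusted p = 0.055) did not. The abemaciclib call did not outlast the loss of single libraries: adjusted p was 0.053 without DMSO replicate 2, 0.092 without DMSO replicate 3, 0.11 without abemaciclib replicate 1 and 0.079 without abemaciclib replicate 2. The palbociclib change passed in the fit over all 18 libraries (-0.98, adjusted p = 0.0053).

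KRT10 was at 55.8, 51.1 and 47.2 CPM with DMSO in ZR-75-1, at 51.6, 46.0 and 53.9 with abemaciclib and at 40.0, 59.1 and 46.4 with palbociclib. The groups overlapped and the log2 changes of -0.03 (95% CI -0.31 to 0.24, adjusted p = 0.88) and -0.10 (95% CI -0.36 to 0.17, adjusted p = 0.65) did not pass. Of the 5 members tested, 2 passed with abemaciclib in ZR-75-1, KRT19 higher and KRT80 lower, and 1 with palbociclib, KRT8 lower, where 36.2% and 27.8% of 11017 genes did.

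**Figure D2:**
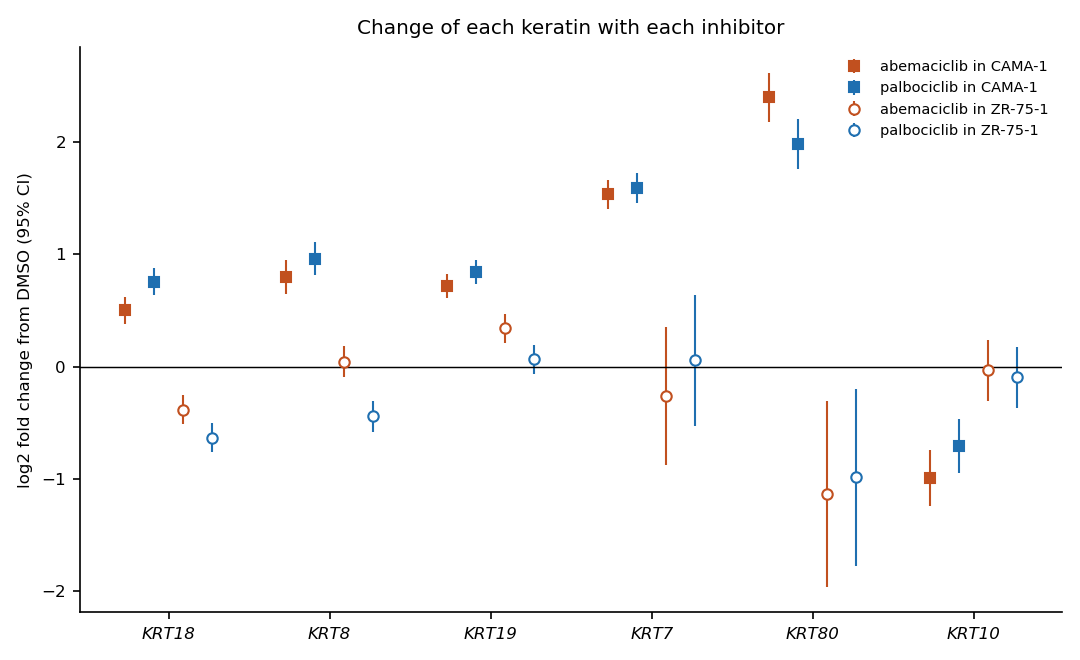
Log2 fold change from DMSO of each keratin (y axis) with each drug in each line; filled squares are CAMA-1, open circles ZR-75-1, and bars are 95% confidence intervals from edgeR. KRT8 and KRT19 lie above 0 with both drugs in CAMA-1, whereas in ZR-75-1 the palbociclib value of KRT8 (-0.44) lies below 0 with its interval, the abemaciclib value of KRT19 (0.34) lies above 0, and the intervals of the other two cross 0. KRT18 was chosen on its values here.

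The response itself was then compared between the lines, in one fit over 18 libraries, by subtracting the change from DMSO of CAMA-1 from that of ZR-75-1. All 5 members tested differed for abemaciclib and for palbociclib, where 18.2% and 20.3% of 11987 genes did. The response of KRT8 was lower in ZR-75-1, with a log2 difference of -0.78 for abemaciclib (SE 0.10, adjusted p = 2.9e-08) and -1.43 for palbociclib (SE 0.10, adjusted p = 2.2e-17). That of KRT19 was lower as well, at -0.40 for abemaciclib (SE 0.083, adjusted p = 0.00022) and -0.80 for palbociclib (SE 0.083, adjusted p = 1.0e-11). For KRT18 the differences were -0.91 and -1.42, as a description. The 2 differences for one gene share the DMSO libraries of both lines.

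The responses of KRT7 and KRT80 were lower in ZR-75-1 as well. KRT7 differed by -1.83 for abemaciclib (SE 0.23, adjusted p = 6.3e-09) and -1.57 for palbociclib (SE 0.22, adjusted p = 6.3e-08). KRT80 had the widest gap, -3.56 for abemaciclib (SE 0.32, adjusted p = 4.1e-14) and -2.99 for palbociclib (SE 0.30, adjusted p = 5.6e-12). KRT10 differed the other way, with a response higher in ZR-75-1 by 0.93 (SE 0.19, adjusted p = 0.00012) and 0.58 (SE 0.18, adjusted p = 0.015). The second of these was lost without CAMA-1 palbociclib replicate 1 (0.52, adjusted p = 0.051) or without ZR-75-1 palbociclib replicate 2 (0.43, adjusted p = 0.11).

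**Figure D3:**
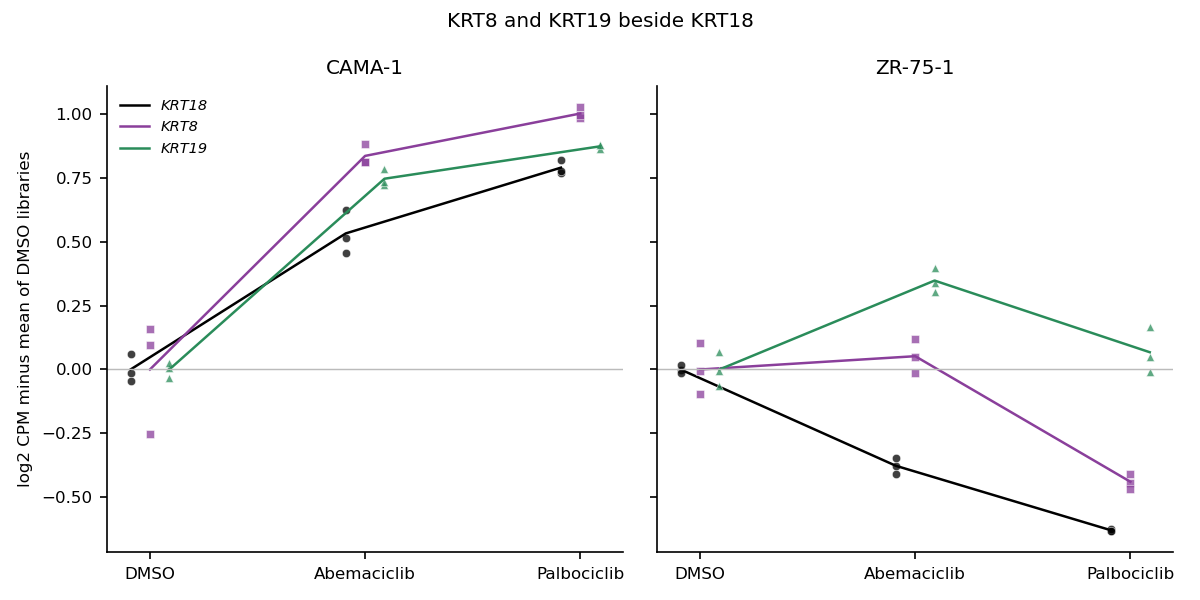
Log2 CPM minus the mean of the DMSO libraries of the same line (y axis) for KRT18, KRT8 and KRT19; points are libraries and lines join group means. In CAMA-1 all 3 genes lie above 0 with both drugs. By group mean CPM, KRT18 is there at 0.53, KRT8 at 0.82 and KRT19 at 0.75 with abemaciclib. In ZR-75-1 with abemaciclib KRT18 is at -0.38, KRT8 at 0.05 and KRT19 at 0.35. With palbociclib in ZR-75-1 KRT18 is at -0.63, KRT8 at -0.44 and KRT19 at 0.07.

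The likeness to KRT18 was put as the root mean square difference of line-centred log2 group means over the 6 groups, among 4988 protein-coding genes with at least 20 CPM on average in each line, where the median difference was 0.35. KRT8 ranked 59 (0.15), KRT19 ranked 674 (0.24) and KRT10 ranked 4551 (0.52). KRT7 and KRT80 were under 20 CPM in ZR-75-1 and got no rank. The 5 genes nearest to KRT18 were no keratins: WWC2 (0.055), HMGCS1 (0.062), MYO9A (0.063), TMSB4X (0.075) and TTC9 (0.080). HMGCS1 encodes an enzyme of cholesterol synthesis, MYO9A an unconventional myosin and TMSB4X the actin-binding peptide thymosin beta 4. All 5 were higher with both drugs in CAMA-1 and lower in ZR-75-1, from 0.36 for MYO9A to 0.96 for TTC9 on the log2 scale in CAMA-1 and from -0.27 for HMGCS1 to -0.65 for TTC9 in ZR-75-1, as the measure requires. These points share the 6 group means and are a description.

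**Figure D4:**
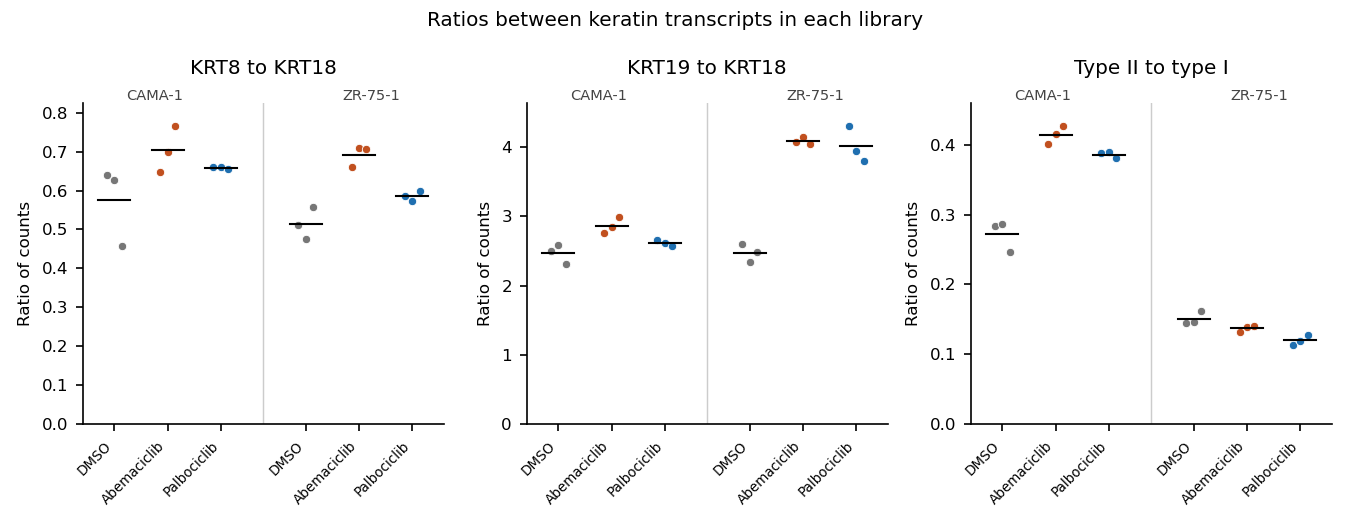
Ratio of counts (y axis, linear from 0) of KRT8 to KRT18, of KRT19 to KRT18 and of the summed type II (KRT7, KRT8, KRT80) to type I (KRT10, KRT18, KRT19) members in each library; bars are group means (n = 3). The KRT19 to KRT18 ratio is near 2.5 in DMSO in both lines and near 4 with either drug in ZR-75-1 only, and the type II to type I ratio is above its DMSO range with the drugs in CAMA-1.

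Within a library, ratios of keratins need no scaling between libraries. KRT19 to KRT18 was 2.47 ± 0.14 in CAMA-1 and 2.48 ± 0.13 in ZR-75-1 with DMSO. The CAMA-1 ratio was 2.86 ± 0.12 under abemaciclib and 2.61 ± 0.045 under palbociclib, whose lowest library (2.57) fell inside the DMSO range of 2.32 to 2.59. In ZR-75-1 it was 4.09 ± 0.048 and 4.02 ± 0.26, with no overlap with DMSO. In CAMA-1 the ratio of KRT8 to KRT18 was 0.576 ± 0.10 in DMSO, 0.704 ± 0.059 under abemaciclib and 0.659 ± 0.0026 under palbociclib. In ZR-75-1 it was 0.515 ± 0.041, 0.692 ± 0.026 and 0.586 ± 0.013, so that in both lines the mean of each drug group lay above that of DMSO. The CAMA-1 DMSO libraries were at 0.641, 0.627 and 0.459, so that the third lowered their mean. The palbociclib libraries of CAMA-1 were at 0.656 to 0.661. These ratios hold KRT18 and are given without a test.

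The ratio of type II to type I members was higher with the drugs in CAMA-1 and lower in ZR-75-1. Summed type II to type I members gave a CAMA-1 ratio of 0.272 ± 0.023 in DMSO, 0.414 ± 0.013 under abemaciclib and 0.386 ± 0.0046 under palbociclib, without overlap. KRT8 alone over KRT18 and KRT19 was 0.138 to 0.183 in DMSO there, 0.172 to 0.192 under abemaciclib and 0.180 to 0.184 under palbociclib, both of which overlapped DMSO. In ZR-75-1 the type II to type I ratio was 0.151 ± 0.0094, 0.137 ± 0.0049 and 0.120 ± 0.0067, with every drug library below every DMSO library. With a drug in CAMA-1 the level of KRT7 was close to that of KRT8 on the type II side, whereas in ZR-75-1 KRT7 and KRT80 reached at most 12.8 and 8.61 CPM.

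Abemaciclib and palbociclib were also set against each other at the matched dose of 500 nM and time of 5 days, in 12 comparisons of 6 genes in 2 lines, adjusted over all genes. In CAMA-1, KRT18 was lower with abemaciclib than with palbociclib (log2 -0.26, SE 0.060, adjusted p = 0.0094) and KRT80 higher (0.42, SE 0.092, adjusted p = 0.0047). Without KRT18, which shares these drug libraries with the contrasts on which it was selected, 1 of 5 members passed, against 2.33% of all genes. The KRT18 call was lost without abemaciclib replicate 2 (adjusted p = 0.051), abemaciclib replicate 3 (0.098) or palbociclib replicate 3 (0.063), and the KRT80 call without replicate 1 of abemaciclib (0.053) or of palbociclib (0.055). KRT8 (95% CI -0.31 to -0.02, adjusted p = 0.31), KRT19 (-0.23 to -0.02, adjusted p = 0.27), KRT7 (-0.18 to 0.06, adjusted p = 0.76) and KRT10 (-0.55 to -0.02, adjusted p = 0.34) did not pass. For KRT8, KRT19 and KRT7 every abemaciclib library was below every palbociclib library, the direction of KRT18, whereas the KRT10 groups overlapped.

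In ZR-75-1 the 3 most abundant keratins were each higher with abemaciclib than with palbociclib. Without KRT18, selected on the same drug libraries, 2 of 5 members passed, against 13.2% of all genes. The differences were 0.49 for KRT8 (SE 0.071, adjusted p = 4.4e-07), 0.28 for KRT19 (SE 0.064, adjusted p = 0.0016) and 0.25 for KRT18 (SE 0.065, adjusted p = 0.0054). KRT7 (95% CI -0.93 to 0.29, adjusted p = 0.57), KRT80 (-1.04 to 0.74, adjusted p = 0.89) and KRT10 (-0.21 to 0.33, adjusted p = 0.84) did not pass, and the intervals of the first 2 hold differences of nearly 1 on the log2 scale.

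Of the 49 other protein-coding keratin genes in the table, 24 had a count in any library and 4 held 90.9% of those counts: KRT81, KRT15, KRT32 and KRT16. These 4 passed the filter on low values in CAMA-1, and KRT81 and KRT15 in ZR-75-1. With DMSO in CAMA-1 all 4 lay below the filter level of 3.01 CPM, KRT81 in all but 1 library, as KRT15 did in ZR-75-1 (level 3.25 CPM), so that there they were tested only through the drug groups where they are high. Those values are therefore given as a description, and no count over the 4 is read.

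KRT81, a type II hair keratin, showed the pattern on which KRT18 was selected at a larger size. CAMA-1 cells in DMSO had 2.23, 3.67 and 2.29 CPM, against 44.6, 32.5 and 29.3 with abemaciclib and 57.6, 44.8 and 47.4 with palbociclib, with log2 changes of 3.70 (SE 0.25) for abemaciclib and 4.18 (SE 0.24) for palbociclib. In ZR-75-1 it was at 31.0, 33.6 and 26.2 CPM with DMSO, at 3.64, 4.50 and 4.33 with abemaciclib and at 5.87, 9.80 and 7.63 with palbociclib (-2.87 for abemaciclib, SE 0.27, adjusted p = 3.4e-13, and -1.98 for palbociclib, SE 0.24, adjusted p = 1.2e-09). The responses differed between the lines by -6.59 (SE 0.36) and -6.19 (SE 0.33), given as a description because they hold the CAMA-1 changes. KRT86 is a close relative. The last 300 bases of an annotated KRT81 transcript were aligned locally to one of KRT86. The bases matched in the best local stretch were 8.67% of the 300, which is a share of the window and not a percent identity. The longest identical run was 10 bases. Whether the counting split reads between KRT81 and KRT86 was not tested.

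KRT15, a type I keratin of basal and progenitor epithelial cells, stood higher with each drug than with DMSO in both lines. In ZR-75-1 it was at 0.979, 2.45 and 2.41 CPM with DMSO, at 18.2, 16.3 and 27.1 with abemaciclib (log2 3.36, SE 0.35) and at 8.11, 8.78 and 7.34 with palbociclib (2.02, SE 0.39). In CAMA-1 it had 0, 0 and 2 counts with DMSO, 12, 5 and 8 with abemaciclib and 15, 12 and 13 with palbociclib, too few with DMSO for a fold. KRT32, a type I hair keratin, had 1 to 4 counts with DMSO in CAMA-1 and 27 to 51 with a drug, and KRT16, a type I keratin of stressed epidermis, had 3 to 6 with DMSO and 9 to 57 with a drug. In ZR-75-1 both had at most 4 counts in a library.

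**Figure D5:**
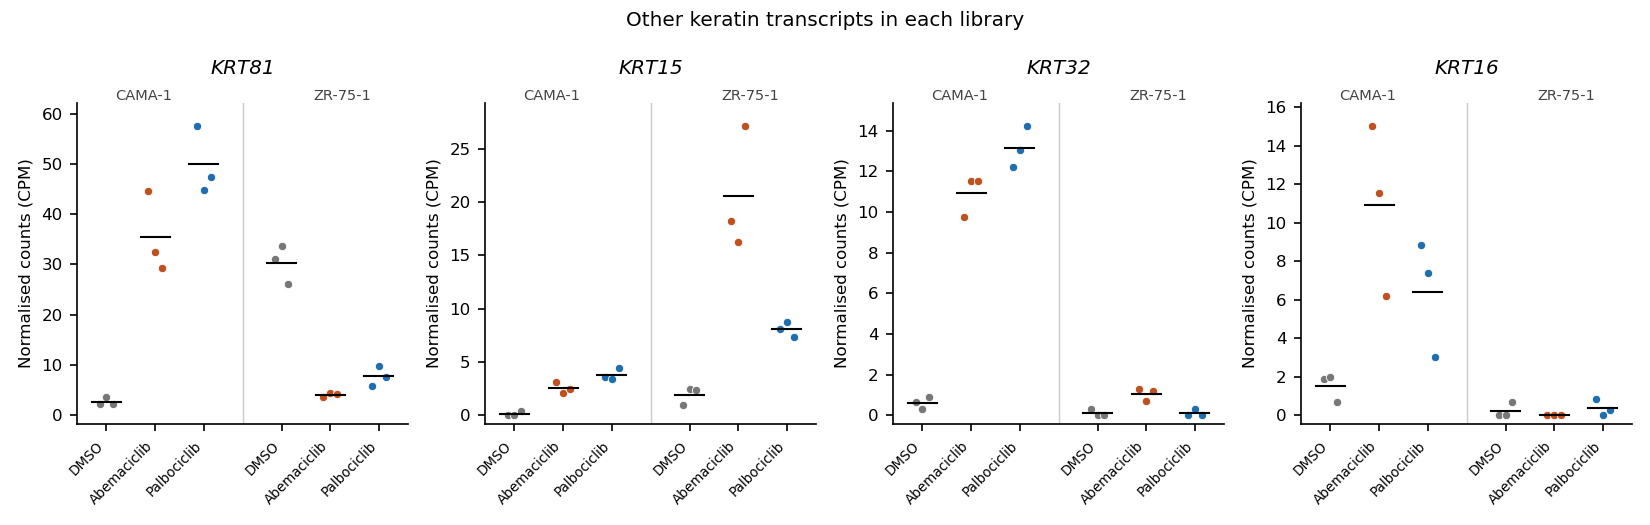
Normalised counts (CPM, linear axes) of the 4 most abundant other keratin genes in each library; points are libraries and bars are group means (n = 3). KRT81 is high with the drugs in CAMA-1 and with DMSO in ZR-75-1, whereas KRT15 is higher with the drugs in both lines.

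Keratin filaments are anchored at desmosomes and crosslinked by plakins. Of 15 such genes, 13 were tested in CAMA-1 where 8 rose with abemaciclib and 9 with palbociclib (8 and 8 by DESeq2), beside 40.3% and 37.1% of all genes called in either direction, with median log2 changes of 0.54 and 0.48 against 0.01 and 0.00 over all genes. None fell by edgeR or DESeq2 with either drug, and 0 and 1 were lower at an unadjusted p under 0.05. The largest rises were those of EPPK1, the plakin epiplakin, from 85.4 to 242 CPM with abemaciclib (log2 1.48, SE 0.091, adjusted p = 1.8e-17), and of DST, the plakin dystonin, from 14.3 to 50.1 CPM with palbociclib (1.76, SE 0.16, adjusted p = 3.8e-12). In ZR-75-1, 12 were tested, 1 rose and 4 fell with abemaciclib by edgeR (1 and 3 by DESeq2; 4 higher and 4 lower at an unadjusted p under 0.05), and 3 fell with palbociclib by either tool, where 0 rose by edgeR, by DESeq2 or at an unadjusted p under 0.05. The shares called, 5 of 12 and 3 of 12, were near the 36.2% and 27.8% of all genes. There JUP, which encodes plakoglobin of the desmosomal plaque, rose with abemaciclib from 138 to 189 CPM (0.45, SE 0.086, adjusted p = 2.3e-05). DSC2, a desmosomal cadherin, fell from 22.1 to 6.62 CPM with abemaciclib (-1.72, SE 0.26, adjusted p = 3.6e-07) and to 8.17 with palbociclib (-1.44, SE 0.25, adjusted p = 7.7e-06). The ZR-75-1 medians over the list were 0.18 and 0.16 although more members fell than rose among those called.

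Of 12 transcription and splicing factors of epithelial cells, all tested in both lines, 6 rose and 3 fell with abemaciclib in CAMA-1 and 4 rose and 2 fell with palbociclib. In ZR-75-1, 2 rose and 4 fell with abemaciclib, and 1 rose and 5 fell with palbociclib. Of all genes, abemaciclib called 40.3% and palbociclib 37.1% in the CAMA-1 fit, against 36.2% and 27.8% in the other line. EHF, an ETS factor, had the largest called rise with both drugs in CAMA-1, from 14.4 to 38.1 CPM (log2 1.41, SE 0.17, adjusted p = 8.5e-09) and to 50.1 CPM (1.79, SE 0.17, adjusted p = 7.4e-12), and with abemaciclib in ZR-75-1, from 273 to 350 CPM (0.35, SE 0.076, adjusted p = 0.00017). ELF3, another ETS factor, had it with palbociclib in ZR-75-1 (98 to 129 CPM, log2 0.39, SE 0.097, adjusted p = 0.0013). The largest called falls were those of OVOL2 with abemaciclib in CAMA-1 (-0.79, SE 0.29, adjusted p = 0.027), ESRP1, a splicing regulator, with palbociclib in CAMA-1 (-0.42, SE 0.10, adjusted p = 0.00098) and with abemaciclib in ZR-75-1 (-1.06, SE 0.14, adjusted p = 5.4e-09), and KLF4 with palbociclib in ZR-75-1 (-0.92, SE 0.28, adjusted p = 0.0080).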

How the data were processed

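RNA of 18 libraries was prepared with a 3′ mRNA kit (the labels name the reverse kit, the methods the forward one) and sequenced single-end. The authors trimmed reads, aligned them to hg38 with STAR 2.7.5b and counted them per gene with featureCounts 2.0.1 against GENCODE 35; strand setting and handling of reads with several alignments are not given in the sources used here. The values deposited by the authors are raw counts per gene. Identifiers were matched to symbols in GENCODE 44 (60401 of 60656 rows; the rest held 0.0704% of counts).

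Counts were fitted in R 4.3.3 with edgeR 4.0.16 (filterByExpr with a count minimum of 10, TMM, glmQLFit, glmQLFTest), per line (9 libraries, 3 groups; 11053 and 11017 genes tested) and over 18 libraries (11987 genes) for differences between lines; adjusted p is Benjamini-Hochberg over all genes tested and a call is adjusted p under 0.05. SE is the log2 fold change divided by the square root of F. CPM use TMM over 18 libraries. All 6 members passed the filter in both lines; KRT80 was over its level in only 1 ZR-75-1 abemaciclib library. The fit was also run on simulated counts with the same spread for every gene, so that run says nothing on single outlying libraries. Replicate pairs differed beyond sampling noise (chi-square per degree of freedom 1.83 to 5.18 over 18 pairs). The biological coefficient of variation was 8.12% in CAMA-1 and 8.30% in ZR-75-1.

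The members, gene lists and tests were chosen with earlier results of these data known. Named genes are the 6 members, the 5 genes nearest to KRT18, the 4 most abundant other keratins, and the largest called rise and fall of each list per drug comparison. Alternatives were RLE, upper-quartile or no scaling factors, no filter, DESeq2 1.42.0, mitochondrial genes left out, pseudogene counts added, a replicate block, one fit over 18 libraries, and each replicate left out.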

Additional observations from a re-analysis of the deposited data

Results flagged for a closer look

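Each member tested responded differently in the lines, by the test of the difference itself (log2 change from DMSO of ZR-75-1, less the CAMA-1 change, in edgeR). Of 11987 genes tested, 18.2% did with abemaciclib and 20.3% with palbociclib. With abemaciclib the differences were -1.83 for KRT7, -0.78 for KRT8, -0.40 for KRT19, -3.56 for KRT80 and 0.93 for KRT10. With palbociclib they were -1.57 for KRT7, -1.43 for KRT8, -0.80 for KRT19, -2.99 for KRT80 and 0.58 for KRT10. The last of these did not pass without CAMA-1 palbociclib replicate 1 or without ZR-75-1 palbociclib replicate 2. The abemaciclib and palbociclib values of a gene share DMSO libraries. KRT18 is left out because it was selected on this difference. For KRT19 the sign of the change from DMSO was the same in both lines with abemaciclib (0.71 and 0.34), so the difference is one of size. Changes of opposite sign passed the test in both lines for KRT8 with palbociclib (0.96 and -0.44). They did so for KRT80 with abemaciclib as well (2.40 and -1.14), a ZR-75-1 call lost without single libraries. The other differences set a called change in CAMA-1 beside one in ZR-75-1 that did not pass.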

How the results depend on the processing

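The number of members called was within 1.5 times that reported under every alternative other than leaving out a library, except for palbociclib against DMSO in ZR-75-1, where 2 were called in place of 1 with upper-quartile scaling and with the fit over 18 libraries, KRT80 being the added one (adjusted p = 0.049 and 0.0053). No called direction turned under any alternative run. Leaving out one library at a time gave 1 to 2 members called for abemaciclib against DMSO in ZR-75-1 and 1 to 2, KRT18 included, for abemaciclib against palbociclib in CAMA-1, where 151 to 197 genes were called against 257 with all libraries (151 without palbociclib replicate 1, 154 without abemaciclib replicate 3). The fits without a library have fewer samples. With no scaling factors the median of all genes moved by -0.13 and -0.10 (log2) for the drugs in CAMA-1, 0.15 and 0.13 for the differences in response, and -0.16 for the lines in DMSO, where the KRT8 call was lost (0.13, adjusted p = 0.11). Same-numbered replicates did not deviate together (r from -0.075 to 0.013 over 18 pairs). A replicate block gave 5, 5, 2 and 1 members called for the 4 comparisons with DMSO, as without it, and changed no call of a member. Of the epithelial factors, 5 fell with palbociclib in ZR-75-1 by edgeR and 3 by DESeq2. Depth limits KRT7 and KRT80 in ZR-75-1, at 8 to 42 counts a library.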
